A study of Mus musculus with 12 samples.

Results

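The feedback inhibitors of the MAP kinase pathway described here are 10 genes of the 54532 in the deposited tables, chosen by symbol: the dual-specificity phosphatases Dusp1, Dusp4, Dusp5 and Dusp6, the Sprouty genes Spry1, Spry2 and Spry4, their relatives Spred1 and Spred2, and Errfi1. They were measured by bulk RNA-seq in 12 libraries of sorted cells from testes of male Tg(Pou5f1-EGFP)2Mnn mice at postnatal day 1 (PN1), whose green fluorescent protein (GFP) is driven by the promoter of Pou5f1, the gene for OCT4. Dexamethasone (dex), a synthetic agonist of the glucocorticoid receptor, was given at 10 μg per g of body weight to pregnant dams at E17.5 and E18.5 and to the pups at PN0, and controls received saline by the same routes. OCT4-GFP positive germ cells and OCT4-GFP negative somatic cells were sorted from both, giving 4 groups of 3 biological replicates (germ or somatic cells, dex or saline). Each replicate pooled testes from at least 2 litters dosed separately, by the study's methods. The somatic fraction holds every GFP negative cell of the testis, so a level in it is an average over several cell types, and fewer cells of a type cannot be told apart from less RNA per cell.

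MAP kinase cascades carry signals from growth factor receptors through RAS, RAF and MEK to ERK, and stress signals to JNK and p38. ERK activity raises the transcription of genes whose products then restrain the cascade. The dual-specificity phosphatases remove the activating phosphates from the kinases, Sprouty and SPRED proteins act upstream between the receptor and RAF, and ERRFI1 (also called MIG6) binds and inhibits receptors of the EGF receptor family. Dusp1 and Errfi1 are also known as genes that glucocorticoids induce in many tissues. In the newborn testis, FGF and GDNF signalling through such cascades is known to act on germ cells.

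Library totals were 18459692 to 25178477 counts, and mitochondrial genes took 1.53% to 2.85% of them. The sort was checked on marker genes. The 8 germ cell markers summed to 959 to 1049 FPKM (fragments scaled to gene length and library size) in germ libraries and to 1.66 to 2.41 FPKM in somatic libraries, where Dppa3 had 0 counts. The 6 Sertoli cell markers summed to 15.0 to 25.8 FPKM in germ libraries and to 1735 to 2078 FPKM in somatic libraries. All 10 inhibitors were counted in every library, from 94 counts of Spry2 in a saline germ library to 4469 counts of Dusp6 in a saline somatic library, and all passed the filter on low counts in each comparison.

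The inhibitors called with dex in somatic cells are Dusp1 at chr17:26505590-26508519 on the minus strand and Errfi1 at chr4:150853919-150868892 on the plus strand (mm10, the build of the count table). Of the 10 inhibitors, 8 matched the RefSeq promoter table of GRCm38.p6, which gave 9 promoters of 300 bases, since Errfi1 has 2 start sites. Each runs from 250 bases before to 50 bases after a start site. They were searched on both strands for motifs of factors that act downstream of glucocorticoids, cyclic AMP or MAP kinases. The promoters of Dusp1 (chr17:26508423-26508722, minus strand) and of the second start site of Errfi1 (chr4:150854820-150855119, plus strand) are shown because both genes were called in somatic cells and both hold the cyclic AMP response element TGACGTCA, in capitals. The promoter of Dusp5 (chr19:53528895-53529194, plus strand) is shown because it holds a pair of adjacent CArG boxes (CC, then 6 bases that are A or T, then GG), the motif of serum response factor, also in capitals.
Dusp1: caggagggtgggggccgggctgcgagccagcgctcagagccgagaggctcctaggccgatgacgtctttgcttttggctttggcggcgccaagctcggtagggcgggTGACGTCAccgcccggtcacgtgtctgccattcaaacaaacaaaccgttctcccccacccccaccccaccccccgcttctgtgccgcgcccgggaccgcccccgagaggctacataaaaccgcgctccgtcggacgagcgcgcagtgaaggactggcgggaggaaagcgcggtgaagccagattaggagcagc
Errfi1, start site 2: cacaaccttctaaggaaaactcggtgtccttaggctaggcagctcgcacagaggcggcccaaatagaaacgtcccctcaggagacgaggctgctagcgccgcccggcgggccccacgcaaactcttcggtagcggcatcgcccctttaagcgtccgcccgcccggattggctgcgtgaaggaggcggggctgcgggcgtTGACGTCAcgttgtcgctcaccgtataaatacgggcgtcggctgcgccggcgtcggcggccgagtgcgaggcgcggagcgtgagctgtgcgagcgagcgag
Dusp5: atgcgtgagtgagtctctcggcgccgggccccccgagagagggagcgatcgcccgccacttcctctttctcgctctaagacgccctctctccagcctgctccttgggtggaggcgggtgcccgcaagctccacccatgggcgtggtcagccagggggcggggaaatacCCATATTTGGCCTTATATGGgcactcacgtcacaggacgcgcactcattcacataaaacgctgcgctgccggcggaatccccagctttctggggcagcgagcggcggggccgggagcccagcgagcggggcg

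The element TGACGTCA lay at bases -143 to -136 from the start site of Dusp1 and at bases -51 to -44 from the second start site of Errfi1. These were 2 of the 9 promoters, against 1.79% of all 32851 promoters in the table. The CArG boxes of Dusp5 lay at bases -82 to -73 and -72 to -63, and 1.63% of all promoters held such a box. None of the 9 promoters held AGAACA, the core motif of the glucocorticoid receptor, which 19% of all promoters held, or the full element of AGAACA, any 3 bases and TGTTCT, which 0.00913% held. None held the AP-1 motif TGAGTCA (5.2% of all promoters) or the ETS motif CCGGAAG (8.86%). No searched motif overlapped another in these promoters. These are matches of letters in a short window and say nothing about binding.

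The dex comparison in somatic cells asks which inhibitors respond to the agonist outside the germline. Dusp1 and Errfi1 rose, by 1.37-fold and 2.20-fold, and none of the 10 fell. The share of 2 in 10 stands beside 3.91% of the 16766 genes tested, 2.74% called higher and 1.17% called lower. Of the genes called, 70.1% were higher, a share that was 53.5% under scaling by library totals and 52.3% with all 12 libraries in the fit. The 655 calls over all genes were 398 without dex somatic replicate 2, and 383 and 354 without saline somatic replicate 1 and 3. At an unadjusted p under 0.05 there were 4 inhibitors (Dusp1, Errfi1, Spry1 and Spry4), against 16.1% of all genes, and all 4 were higher in dex. The median log2 fold change was 0.16 over the 10 inhibitors and -0.01 over all genes tested. The plot of dex effects shows both populations side by side.

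**Figure D1:**
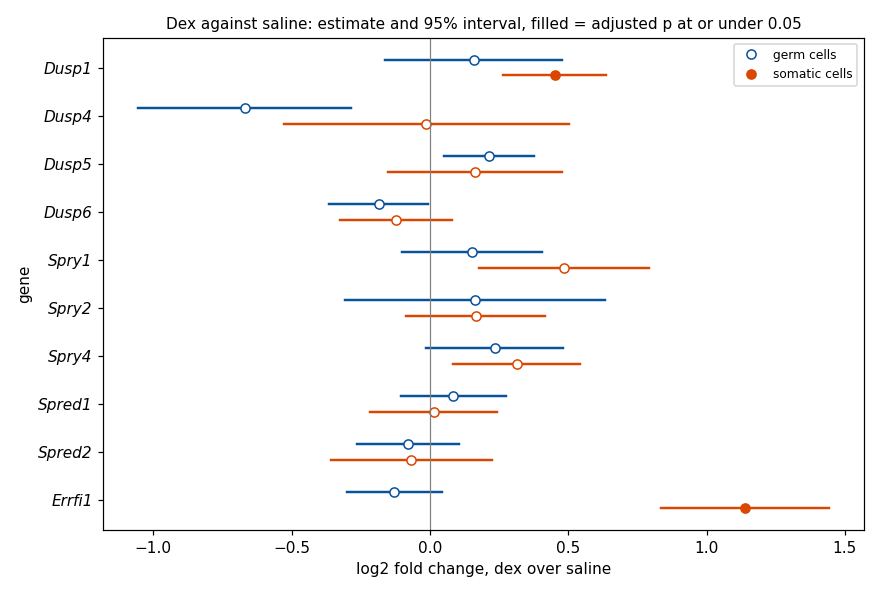
Log2 fold change of dex over saline (x axis) for each of the 10 inhibitors (y axis) in germ cells (blue) and somatic cells (orange), with lines for 95% intervals and filled points for an adjusted p at or under 0.05. Errfi1 at 1.14 and Dusp1 at 0.45 are the filled points, both in somatic cells, and Dusp4 in germ cells lies farthest to the left at -0.67.

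Errfi1 encodes the inhibitor of EGF receptor family kinases. Its levels in replicates 1, 2 and 3 were 28.0, 17.1 and 24.4 FPKM in saline somatic cells and 57.9, 49.3 and 46.2 FPKM in dex somatic cells. Every dex library lay above every saline library, with a gap between 28.0 and 46.2 FPKM. The log2 fold change was 1.14 ± 0.14 (SE, n = 3 per group), a fold of 2.20 with a 95% interval of 1.78 to 2.72 (edgeR adjusted p = 0.00022). Saline replicate 2 was the lowest of the 6 libraries, and without it the log2 fold change was 0.96 (adjusted p = 0.000108).

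Dusp1 encodes a nuclear phosphatase that acts on p38, JNK and ERK. Its levels were 48.5, 42.3 and 47.3 FPKM in saline somatic cells and 59.8, 69.1 and 60.6 FPKM in dex somatic cells. The groups did not overlap, with every dex library above every saline library. The log2 fold change was 0.45 ± 0.09, a fold of 1.37 (95% interval 1.202 to 1.56, adjusted p = 0.00768). It was not called by limma on log2(FPKM + 0.1) (adjusted p = 0.0504) or by edgeR with all 12 libraries in the fit (adjusted p = 0.119), with log2 fold changes of 0.45 and 0.42.

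The Sprouty genes encode membrane-associated inhibitors of receptor tyrosine kinase signalling. Spry1 was at 22.8, 19.3 and 17.0 FPKM in saline somatic cells and at 32.9, 29.0 and 21.0 FPKM in dex somatic cells. Dex replicate 3 lay inside the saline range, and the other dex libraries lay above it. The log2 fold change was 0.48 ± 0.14, close in size to that of Dusp1 but with a wider spread (adjusted p = 0.0839). Spry1 was past the threshold without dex replicate 3 (0.65, adjusted p = 0.0155), with DESeq2 (adjusted p = 0.0301) and with no filter on low counts (adjusted p = 0.00058). DESeq2 thus gave 3 inhibitors, against 5.83% of the genes it tested. In GENCODE M21, 24.4% of the exonic bases of Spry1 (chr3:37639947-37644598) are also in the antisense gene Gm42922, whose counts were 0.308% of those of Spry1. The strand setting of the counting is not stated, so that share does not show how many reads in the shared bases were antisense.

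Spry4 was at 8.02, 8.22 and 8.73 FPKM in saline somatic cells and at 11.2, 10.3 and 9.66 FPKM in dex somatic cells. The groups did not overlap, as for Errfi1 and Dusp1, and such a gap between groups was found for 3 of the 10 inhibitors and for 21.7% of all genes tested. Its log2 fold change was 0.31 ± 0.11 (adjusted p = 0.141). Spry2 differed less, at 15.0, 16.9 and 17.9 FPKM in saline and 20.8, 17.8 and 17.47 FPKM in dex (log2 fold change 0.17 ± 0.12, adjusted p = 0.554).

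The remaining inhibitors had overlapping somatic groups and adjusted p-values from 0.59 to 0.987. Dusp6, the cytoplasmic phosphatase of ERK, was at 60.5, 56.9 and 54.5 FPKM in saline and 56.7, 57.1 and 44.6 FPKM in dex somatic cells, a log2 fold change of -0.12 with a 95% interval of -0.32 to 0.08. Dusp5, a nuclear phosphatase of ERK, was at 34.8, 20.6 and 29.8 FPKM in saline and 34.2, 29.6 and 31.9 FPKM in dex, so that saline replicate 2 again held the lowest value. Without that library its log2 fold change went from 0.16 to -0.03. For Dusp4, Spred1 and Spred2 the log2 fold changes were -0.01, 0.01 and -0.07, and the intervals ran from -0.53 to 0.50, from -0.21 to 0.24 and from -0.36 to 0.22.

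Markers of the cell types in the somatic fraction moved with treatment as well. Their counts below stand beside 2.74% of all genes tested that were called higher and 1.17% called lower. An unadjusted p under 0.05 was found for 16.1% of all genes tested. Of the 7 peritubular and stromal markers, 3 were higher in dex (Acta2, Dcn and Pdgfra), and their sum was 709 to 791 FPKM in saline and 969 to 1100 FPKM in dex. Of the 6 macrophage markers, 2 were lower, and their sum was 28.0 to 48.3 FPKM in saline and 13.6 to 17.6 FPKM in dex. The erythroid list had 2 of 5 lower, with sums of 302 to 444 and 98.1 to 358 FPKM, the Leydig list 1 of 6 lower (54.2 to 94.2 and 42.0 to 83.2 FPKM), and the lymphocyte list 1 of 4 lower (1.597 to 1.92 and 0.258 to 0.487 FPKM, with 2 of its markers at 0 counts in dex). None of the 6 Sertoli markers was called (1768 to 1972 and 1735 to 2078 FPKM), nor any of the 5 endothelial markers (50.8 to 56.9 and 53.5 to 72.3 FPKM). Cdh5 made up most of the endothelial sum, at 49.0 FPKM in saline and 57.7 FPKM in dex on average, while the means of the other 4 were lower in dex and the median log2 fold change of the list was -0.49, with 3 of 5 at an unadjusted p under 0.05. The part of these shifts in the results for Errfi1 and Dusp1 was not tested.

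**Figure D2:**
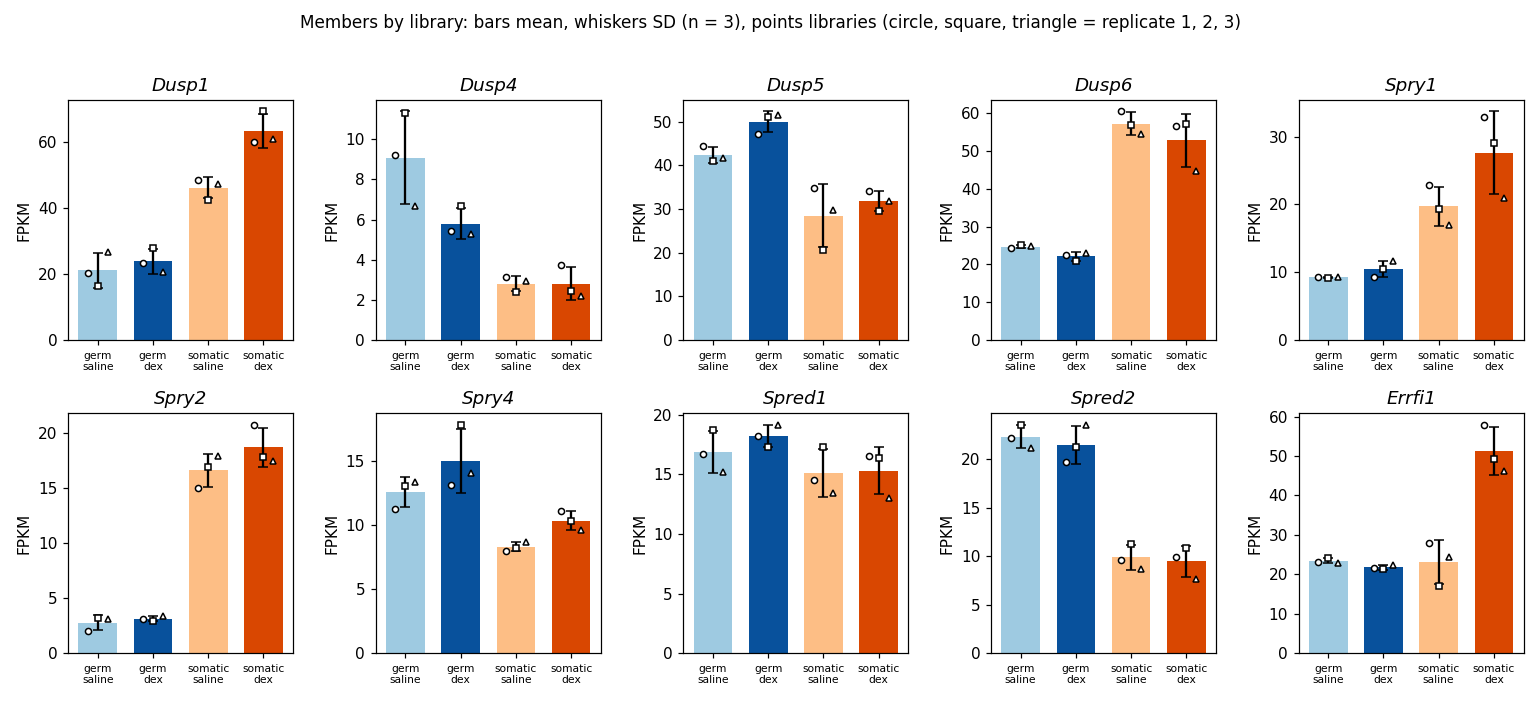
FPKM (y axis, from 0) of the 10 inhibitors, a panel each, in the 4 groups (x axis), with bars for the mean, whiskers for the SD of 3 libraries and points for the libraries. The dex somatic libraries of Errfi1 sit between 46.2 and 57.9 FPKM and the other 9 libraries between 17.1 and 28.0 FPKM, and the Spry2 germ libraries lie at 1.99 to 3.41 FPKM.

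In germ cells no inhibitor was called between dex and saline, against 1.25% of the 18550 genes tested, 0.739% higher and 0.507% lower. Those 231 calls over all genes changed when single libraries were left out. They were 49 and 75 without saline germ replicate 1 and 2, and 115 and 102 without dex germ replicate 1 and 3. Without dex germ replicate 2 there were 265, and the share that was higher went from 59.3% to 43%. At an unadjusted p under 0.05, edgeR gave 3 inhibitors (Dusp4, Dusp5 and Dusp6), against 14.7% of all genes, and DESeq2 called 1 (Dusp4), against 4.55% of the genes it tested. The groups did not overlap for 3 inhibitors (Dusp5, Dusp6 and Errfi1), against 20.2% of all genes. The median log2 fold change was 0.12 over the 10 and -0.003 over all genes tested. Glucocorticoid response genes were called in the same libraries, 2 of 7 higher (Klf9 and Ddit4) and 1 lower (Tsc22d3), and in somatic cells 4 of 7 were higher. The paper, which used DESeq2, reports no change of Tsc22d3, Klf9 and Per1 in germ cells, so the edgeR calls for Klf9 and Tsc22d3 differ from it. Mean Klf9 was 5.62 FPKM in saline and 12.1 FPKM in dex germ cells, and mean Tsc22d3 was 47.9 and 37.6 FPKM. How these 2 calls depend on single libraries is not shown here. Mean Fkbp5, the paper's check of its fetal dosing, was 19.0 FPKM in saline and 20.3 FPKM in dex germ cells. In somatic cells it was 26.9 and 30.3 FPKM.

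Dusp4 encodes a nuclear phosphatase that acts on ERK and other MAP kinases. Its levels in replicates 1, 2 and 3 were 9.24, 11.3 and 6.67 FPKM in saline germ cells and 5.43, 6.69 and 5.26 FPKM in dex germ cells. The groups met at their edges, where saline replicate 3 lay just under dex replicate 2. The log2 fold change was -0.67 ± 0.18, with a 95% interval of -1.06 to -0.28 (edgeR adjusted p = 0.0869). It was past the threshold with DESeq2 (adjusted p = 0.0145), with no filter on low counts (adjusted p = 0.00172), and without saline replicate 3 (-0.85, adjusted p = 0.0157). No marker of another cell type was called between dex and saline in germ cells. The 5 erythroid markers summed to 5.19 to 6.66 FPKM in saline and 2.58 to 3.83 FPKM in dex, with no overlap, and 2 of the 3 tested were at an unadjusted p under 0.05. The 6 Leydig markers summed to 2.82 to 4.25 and 1.58 to 3.11 FPKM (2 of 4 tested at an unadjusted p under 0.05), and the 6 Sertoli markers to 19.8 to 25.8 and 15.0 to 20.9 FPKM (2 of 6). Of all genes tested, 14.7% had such a p. The peritubular and stromal sums were 5.56 to 6.86 FPKM in saline and 5.74 to 7.28 FPKM in dex (0 of 6). The endothelial sums were 9.35 to 11.1 and 9.78 to 12.3 FPKM (1 of 5). Macrophage sums were 2.56 to 4.90 and 3.14 to 3.48 FPKM (0 of 2), and lymphocyte sums 3.66 to 4.88 and 2.50 to 6.22 FPKM (0 of 2). The part of these differences in the values of Dusp4 was not tested.

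Both ERK phosphatases had germ groups that stood apart by small amounts in opposite directions. Dusp5 was at 44.4, 41.0 and 41.6 FPKM in saline and 47.2, 51.0 and 51.6 FPKM in dex germ cells, with a log2 fold change of 0.21 ± 0.08 (adjusted p = 0.189). Dusp6 was at 24.2, 25.1 and 24.8 FPKM in saline and 22.4, 20.8 and 23.0 FPKM in dex, with a log2 fold change of -0.18 ± 0.08 (adjusted p = 0.321). Neither difference passed the threshold in any of the alternatives.

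Dusp1 in germ cells was at 20.3, 16.2 and 26.6 FPKM in saline and 23.1, 27.9 and 20.5 FPKM in dex. These groups overlapped over most of their range, and the log2 fold change was 0.16 with a 95% interval of -0.16 to 0.48 (adjusted p = 0.688). Errfi1 was at 23.2, 24.1 and 22.9 FPKM in saline germ cells and 21.5, 21.3 and 22.5 FPKM in dex germ cells, with a spread of 0.62 and 0.61 FPKM (SD). Its log2 fold change was -0.13, with an interval of -0.30 to 0.04 (adjusted p = 0.497), so the interval lay well below the 1.14 of somatic cells.

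The Sprouty and SPRED genes had log2 fold changes between -0.08 (Spred2) and 0.23 (Spry4) in germ cells, with adjusted p-values from 0.371 to 0.793. Spry4 was at 11.3, 13.1 and 13.4 FPKM in saline and 13.2, 17.9 and 14.1 FPKM in dex. Spry2 was the least abundant and the least precise of the 10, and its interval ran from -0.31 to 0.63. For Spry1, Spred1 and Spred2 the intervals ran from -0.10 to 0.41, from -0.10 to 0.27 and from -0.26 to 0.11.

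The contrast of the dex effects over all 12 libraries asked whether germ and somatic cells differed in their response. It uses the same libraries as both dex comparisons. Errfi1 was the single inhibitor called, against 0.827% of the 20551 genes tested. Its dex effect in germ cells minus that in somatic cells was -1.24 ± 0.18 on the log2 scale, with a 95% interval of -1.62 to -0.86 (edgeR adjusted p = 0.0043). With 1 library left out at a time it lay between -1.41 and -1.07 and was called each time (adjusted p at most 0.0186). For Dusp1 the difference was -0.26 with an interval of -0.68 to 0.16 (adjusted p = 0.629). For Dusp4 it was -0.63 with an interval of -1.30 to 0.05 (adjusted p = 0.418). The other 7 differences lay between -0.30 (Spry1) and 0.11 (Spred1), with adjusted p-values of 0.603 or more.

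Germ and somatic cells from saline-injected controls were compared to place the inhibitors without dex. By the study's methods the testes were digested with trypsin before the sort, and the part of this step in the levels was not tested. Dusp4, Dusp5, Spry4 and Spred2 were higher in germ cells and Dusp1, Dusp6, Spry1 and Spry2 were lower. These shares, 4 in 10 each, stand beside 39.8% of the 18870 genes tested that were higher and 36.7% that were lower, so the inhibitors were called about as often as other genes. Spred1 and Errfi1 were not called. The phosphatases and the Sprouty genes each had members on both sides.

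Spry2 showed the widest gap. Its levels were 1.99, 3.18 and 3.09 FPKM in saline germ cells and 15.0, 16.9 and 17.9 FPKM in saline somatic cells, and the log2 fold change of germ over somatic was -2.72 ± 0.19, or 6.59-fold lower (adjusted p = 5.58e-08). The mean in germ cells was 16.6% of that in somatic cells. The 6 Sertoli markers were at 0.735% to 3.94%. The 6 Leydig markers were at 1.45% to 18.9%, of which Star was the highest and the other 5 were at 5.16% or less. Other somatic lists reached higher. The macrophage markers ran from 1.17% (C1qb) to 44.0% (Cd68) and the endothelial markers from 10.9% (Cdh5) to 164% (Pecam1). The peritubular and stromal markers ran from 0.347% (Acta2) to 74.5% (Tagln). The part of somatic cells left in the germ sort was not tested. Spry1 was 2.32-fold lower in germ cells, at 9.29, 9.16 and 9.29 FPKM against 22.8, 19.3 and 17.0 FPKM (log2 fold change -1.21 ± 0.12). Spry4 went the other way, at 11.3, 13.1 and 13.4 FPKM in germ cells and 8.02, 8.22 and 8.73 FPKM in somatic cells, a ratio of 1.39 (log2 fold change 0.47 ± 0.10, adjusted p = 0.00131).

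Among the phosphatases, Dusp4 at chr8:34807297-34819894 was 2.97-fold higher in saline germ cells than in saline somatic cells, where it was at 3.13, 2.37 and 2.93 FPKM. The log2 fold change was 1.57 ± 0.21 (adjusted p = 2.29e-05). Dusp5 was 1.38-fold higher (log2 fold change 0.46 ± 0.14, adjusted p = 0.0121), with no overlap between the groups. This call was lost without saline germ replicate 1 (0.38, adjusted p = 0.0931) or replicate 3 (0.44, adjusted p = 0.0530). In GENCODE M21, 22.1% of the exonic bases of Dusp5 (chr19:53529109-53542431) are also in the antisense gene AC137853.2, and reads from both could not be told apart because the strand setting of the counting is not stated. Dusp6 was 2.53-fold lower in germ cells (log2 fold change -1.34 ± 0.08) and Dusp1 2.38-fold lower (-1.25 ± 0.14), and for both all germ libraries lay far below all somatic libraries.

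The SPRED proteins bring the RAS inhibitor neurofibromin to the membrane. Spred2 was 2.07-fold higher in germ cells, at 22.2, 23.6 and 21.2 FPKM against 9.65, 11.3 and 8.68 FPKM in somatic cells (log2 fold change 1.05 ± 0.12, adjusted p = 4.6e-06). Spred1 was at 16.7, 18.8 and 15.2 FPKM in germ cells and 14.6, 17.3 and 13.5 FPKM in somatic cells, with overlapping groups and a log2 fold change of 0.03 (95% interval -0.22 to 0.29). Errfi1 in saline overlapped as well, at 22.9 to 24.1 FPKM in germ cells and 17.1 to 28.0 FPKM in somatic cells (log2 fold change -0.10, interval -0.41 to 0.20). Without saline somatic replicate 2 it was called lower in germ cells (-0.26, adjusted p = 0.0204), and under scaling by library totals its sign turned (0.03).

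**Figure D3:**
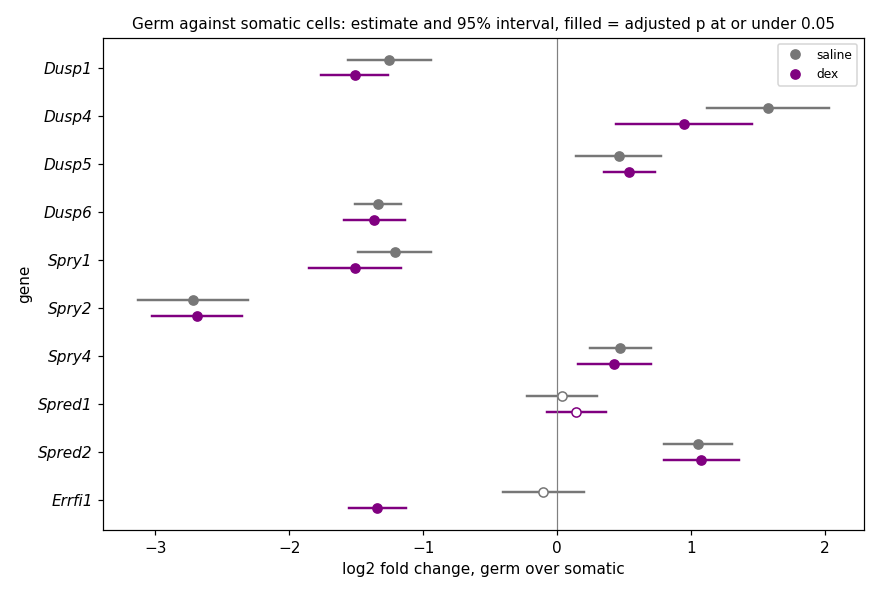
Log2 fold change of germ over somatic cells (x axis) for each of the 10 inhibitors (y axis) in saline (grey) and dex animals (purple), with lines for 95% intervals and filled points for an adjusted p at or under 0.05. The intervals of saline and dex overlap for 9 of the inhibitors, and for Errfi1 the estimate lies at -0.10 in saline and at -1.34 in dex.

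In dex animals the same 4 inhibitors were higher in germ cells (40.5% of the 18778 genes tested) and 5 were lower (35.7%), with Errfi1 as the addition at 2.54-fold lower (log2 fold change -1.34 ± 0.10, adjusted p = 6.83e-08). The other estimates in dex ranged from -2.69 for Spry2 to 1.08 for Spred2. Dusp4 stood at 0.95 ± 0.23 in dex, and its interval of 0.44 to 1.45 overlapped that in saline of 1.12 to 2.03. Spred1 was not called by edgeR (0.14, adjusted p = 0.214). It was called with DESeq2 size factors (0.25, adjusted p = 0.0371), with library totals (0.33, adjusted p = 0.00693) and with DESeq2 (0.25, adjusted p = 0.0438). Relative to the main scaling, library totals moved the median of all genes by 0.14 in the saline comparison and by 0.18 in the dex comparison.

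Levels per length can also be ordered within each group. In saline germ cells Dusp5 led at 42.3 ± 1.80 FPKM (SD, n = 3), above the next gene, Dusp6 at 24.7 ± 0.42 FPKM, with no overlap. Errfi1, at 23.4 FPKM, lay below Dusp6 with no overlap. It overlapped Spred2 at 22.3 FPKM, which in turn overlapped Dusp1 at 21.0 FPKM. Spred1 (16.9 FPKM), Spry4 (12.6), Spry1 (9.25) and Dusp4 (9.07) came next, and Spry2 was last at 2.75 ± 0.66 FPKM. In saline somatic cells Dusp6 led at 57.3 ± 3.03 FPKM, ahead of Dusp1 at 46.0 ± 3.27 FPKM, and Dusp4 was last at 2.81 ± 0.39 FPKM. Errfi1 lay between Dusp5 and Spry1 in saline somatic cells, at 23.1 ± 5.55 FPKM, and overlapped both. In dex somatic cells it lay at 51.1 ± 6.09 FPKM and overlapped Dusp6 at 52.8 ± 7.08 FPKM, while Dusp1 led at 63.2 ± 5.16 FPKM.

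How the inhibitors varied together was described by Pearson's r of log2 CPM (counts scaled to library size) over the 12 libraries, after the mean of each cell population was taken away. The libraries share depth and treatment, so no test is given. Among pairs of inhibitors the highest values were for Spred1 with Spred2 (0.814), Dusp6 with Spred2 (0.739) and Spry1 with Errfi1 (0.69), and the lowest was for Dusp5 with Spred2 (-0.487). Among 11984 genes, those most like Errfi1 were Cebpd (0.953), which encodes a transcription factor, the circadian gene Per2 (0.948) and the alkaline phosphatase gene Alpl (0.947). Those most like Dusp1 were Calcoco1 (0.946), Iglon5 (0.944) and the interleukin 11 receptor gene Il11ra1 (0.939). For Dusp6 they were the checkpoint kinase gene Chek2 (0.942), Tvp23a (0.914) and the chaperonin gene Cct6a (0.906).

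The rest of the pathway was taken as 120 genes in lists of ligands, receptors, core cascade, JNK and p38 kinases, targets and other inhibitors. In somatic cells 12 of 115 tested rose with dex and 2 fell, with a median log2 fold change of 0.01. Over all genes tested, 2.74% were called higher and 1.17% lower. Receptors gave 5 of 17, all higher, among them Fgfr4 (1.75 ± 0.24), Erbb3 (1.34 ± 0.21) and Fgfr2 (0.79 ± 0.12). Pdgfra is counted there too and is also a stromal marker. Of 20 ligands, Igf1 (0.81 ± 0.11) and Igf2 (0.66 ± 0.17) were higher and Gdnf lower (-0.35 ± 0.09). None of the 22 core cascade genes and none of the 12 JNK and p38 kinases was called by edgeR, with 6 and 0 at an unadjusted p under 0.05. Without 1 library at a time the somatic total fell from 14 to 9 on leaving out dex replicate 1 or 2 or saline replicate 1 or 3.

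Of the 22 targets of the cascade, 4 rose in dex somatic cells, Fos, Ier2 and Fosl2 among them, beside 2.74% of all genes tested. None was called lower and 18 were not called, with a median log2 fold change of 0.18. Fos was at 403, 267 and 416 FPKM in saline and 668, 666 and 561 FPKM in dex (log2 fold change 0.80 ± 0.13), and Ier2 at 405, 285 and 390 FPKM in saline and 596, 597 and 546 FPKM in dex (0.68 ± 0.11). Saline replicate 2, the lowest library for Errfi1 and Dusp5, was also the lowest for both of these. Fosl2 had a log2 fold change of 0.54 ± 0.11. Of 22 other inhibitors, Socs3, a feedback inhibitor of cytokine receptors, was higher (0.99 ± 0.20) and Pebp1 was lower (-0.30 ± 0.08).

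In germ cells 4 of 111 pathway genes were called with dex, against 1.25% of all genes tested. None of the 4 was a phosphatase, Sprouty or SPRED gene. The FGF receptor gene Fgfr1 was higher (0.44 ± 0.08), and the adaptor gene Shc1 (-0.56 ± 0.09), the p38 gamma gene Mapk12 (-0.74 ± 0.12) and the cyclin gene Ccnd1 (-0.61 ± 0.08) were lower. Ccnd1 was at 34.1, 34.9 and 35.4 FPKM in saline and 21.0, 23.8 and 24.8 FPKM in dex, with a wide gap between the groups. The count of 4 was 8 without dex germ replicate 2 and 1 without saline germ replicate 1.

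**Figure D4:**
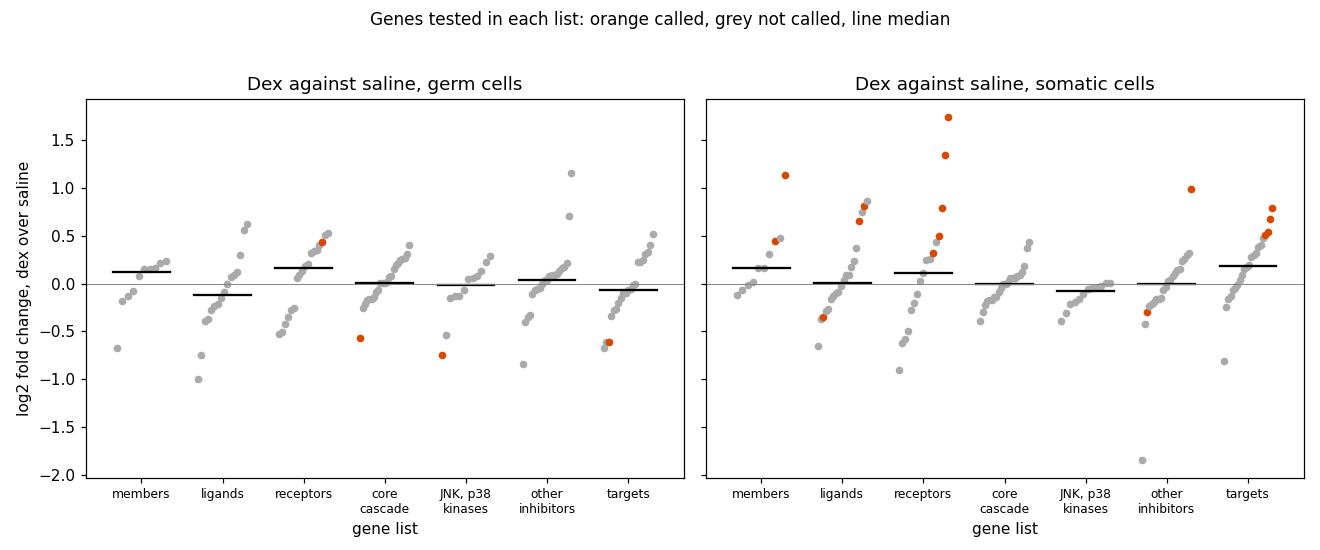
Log2 fold change of dex over saline (y axis) for the genes tested in each list (x axis) in germ cells (left) and somatic cells (right), with called genes in orange, other genes in grey and a line at the median of each list. Of the pathway genes outside the 10 inhibitors, 4 of 111 in germ cells and 14 of 115 in somatic cells are orange. Over all genes tested, 1.25% and 3.91% were called.

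Between the populations in saline, 43 of 116 pathway genes were higher in germ cells and 58 lower. Over all 18870 genes tested, 39.8% were higher and 36.7% lower. Of the 22 targets, 7 were higher in germ cells and 15 lower, with a median log2 fold change of -2.72. The GDNF receptor genes Ret (10.59) and Gfra1 (9.12), the kinase genes Mapk12 (4.38) and Mapk10 (4.11), the target Egr4 (6.95) and the ERK phosphatase gene Dusp9 (5.74) were among the higher, with log2 fold changes given. Dusp9, which is not among the 10, was at 61.1 ± 1.15 FPKM in saline germ cells and 1.05 ± 0.08 FPKM in the saline soma, and its germ level lay above that of Dusp5. Lower in germ cells were Igf1 (-6.25), Etv1 (-6.91), Flrt3 (-5.31) and Rps6ka2 (-2.87), while Rps6ka1 was higher (1.66). Fgf8 had 0 counts in all saline somatic libraries and was at 2.69 ± 0.22 FPKM in saline germ cells.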

How the data were processed

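The 10 inhibitors and the gene lists were chosen with earlier results of these data known. Poly-dT selected RNA was sequenced as paired ends. Per the labels and the study's methods, the authors aligned reads to mm10 with HISAT2 2.0.5 and counted them per gene with featureCounts 1.5.0-p3. The deposited counts are raw, and the deposited FPKM values are those counts scaled by gene length and a library size that differs from the total. That size was 0.956 to 0.9998 of the total in dex somatic libraries and 1.014 to 1.027 in saline somatic libraries. In germ libraries it was 1.016 to 1.042. FPKM in dex somatic libraries is thus somewhat higher, relative to saline, than library totals would give. The annotation release and strand setting are not given in the sources used here. The authors' DESeq2 (1.20.0) tables of fold changes and p-values were not used. Library totals were 18459692 to 25178477 counts, and no batch is labelled.

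Counts were tested with the quasi-likelihood test of edgeR 4.0.16 (R 4.3.3), two-sided, with TMM scaling and filterByExpr at a minimum count of 10, on the 6 libraries of each comparison or all 12 for the contrast of dex effects. P-values were adjusted by Benjamini-Hochberg over all genes tested, and a gene was called at an adjusted p at or under 0.05. SE is the log2 fold change over the square root of F, and intervals cover 95%. Alternatives used DESeq2 1.42.0, limma 3.58.1 on log2 FPKM with pseudocounts of 0.1 and 1, other scalings and filters, a replicate block, all 12 libraries in a fit, and each library left out. When a library was left out, its group kept 2 and the spread was pooled.

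All 10 inhibitors are named in each comparison. Of each pathway list, at most 3 called genes with the smallest adjusted p are named per dex comparison, and the 2 with the largest change between populations in saline among those with a mean of at least 1 FPKM. For Dusp1, Errfi1 and Dusp6 the 3 genes with the highest r are named, where the average log2 CPM was 2 or more. Cell type markers and glucocorticoid response genes named beside a count were chosen after their values were seen.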

Additional observations from a re-analysis of the deposited data

Results flagged for a closer look

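Errfi1 is listed here because its dex effect differed between the populations by a test of the difference itself. The effect in germ cells minus that in somatic cells was -1.24 on the log2 scale (edgeR adjusted p = 0.0043). All 3 dex somatic libraries lay above all 3 saline somatic libraries, and all 3 dex germ libraries lay below all 3 saline germ libraries, by a smaller amount that was not called.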

How the results depend on the processing

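Recomputed counts of called inhibitors stayed within 1.5 times the main count in 75 cases and moved beyond it in 5. With dex in germ cells the count went from 0 to 1 (Dusp4) with DESeq2 and with no filter on low counts, and lay at 0 to 1 with each library left out. With dex in somatic cells it went from 2 to 1 (Dusp1 lost) with limma on log2(FPKM + 0.1) and with all 12 libraries in a fit, and lay at 2 to 3 with each library left out. With each library left out the counts were 7 to 9 for germ against somatic cells in saline, 9 in dex and 1 for the contrast of dex effects. The causes were not tested.

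The labels do not say which germ and somatic libraries came from the same pool, and whether replicate numbers pair them was not settled. Same-numbered libraries had correlations of deviations of -0.206 to 0.12 between germ groups and -0.00741 to 0.0214 between somatic groups. The values were 0.0846 to 0.148 between saline groups and -0.0279 to 0.00618 between dex groups. In saline each germ library correlated best with the somatic library of its own number, a hint from the data only. In dex this held for replicate 1 only. With the replicate block the counts of called inhibitors were 0 and 3 for dex in germ and somatic cells (Spry1 added), 8 and 9 for germ against somatic cells in saline and dex, and 1 for the contrast. Pathway genes called went from 4 to 2 in germ cells and from 2 to 1 in the contrast.

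Signs turned only for estimates that were not called in the main fit. The largest of these main estimates were 0.16, for Dusp5 with dex in somatic cells and for Spry2 with dex in germ cells. Library totals in place of TMM gave -0.046 for Spred1 with dex in somatic cells, 0.027 for Errfi1 in germ against somatic cells in saline, and 0.021 for Dusp6 and 0.0056 for Spry4 in the contrast. All 12 libraries in a fit gave -0.017 for Spred1 in somatic cells. Limma gave 0.045 (pseudocount 0.1) and 0.042 (pseudocount 1) for Errfi1 in saline, and -0.0096 for Spry2 in the contrast (pseudocount 1). With each library left out, dex log2 fold changes ranged from -0.025 to 0.28 for Spry2 in germ cells, and in somatic cells from -0.28 to 0.14 for Dusp4, -0.029 to 0.34 for Dusp5, -0.059 to 0.12 for Spred1 and -0.17 to 0.071 for Spred2. Spred1 in germ against somatic cells in saline ranged from -0.058 to 0.17. In the contrast the ranges were -0.10 to 0.26 for Dusp5, -0.13 to 0.029 for Dusp6, -0.17 to 0.13 for Spry2, -0.19 to 0.033 for Spry4, -0.016 to 0.20 for Spred1 and -0.10 to 0.13 for Spred2.

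Of the other pathway genes, 4 were called with dex in germ cells (0 with limma, 16 with DESeq2, 20 with no filter, 2 with all 12 libraries), 14 in somatic cells (3 with limma, 22 with no filter) and 2 in the contrast (1 with limma, 7 with DESeq2, 16 with no filter). The main fits called 1.25%, 3.91% and 0.827% of all genes tested in these comparisons, and the alternatives had their own shares. In germ cells DESeq2 called 4.55%, no filter 767 of 33910 genes, limma 6 and 12 of 18550, and all 12 libraries 142 of 20551. In somatic cells no filter called 1061 of 27937 genes and limma 251 and 281 of 16766. In the contrast no filter called 706 of 35743 genes, limma 57 and 149 of 20551, and DESeq2 620 genes. Over all alternatives, 746 log2 fold changes of inhibitors kept their direction and side of the threshold. The share of called genes that were higher was 59.3% in germ cells (69.3% with library totals, 83.3% and 75% of few calls with limma, 51.9% with DESeq2, 47.7% with no filter, and 43% to 65.3% with each library left out) and 70.1% in somatic cells (53.5% with library totals, 52.3% with all 12 libraries, 86.5% and 82.2% with limma, and 69.3% to 81.1% with each library left out). Depth gave at least 94 counts per inhibitor and library, with the lowest precision for Spry2 and Dusp4.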
